A study of Mus musculus with 7 samples.

Results

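Type I interferon response genes were examined in osteoblasts sorted from the bones of mice with and without lung tumors. The set was a list of 39 gene symbols given by name, and all 39 were found among the 23725 gene IDs of each count table. Of these, 11 belong to signalling (3 transcription factors, 3 sensors of foreign nucleic acid and 5 regulators) and 28 are effectors that act on viral RNA, proteins or membranes. The question was which of these genes are detected in osteoblasts and whether their transcripts differ when a tumor grows in the lung.

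Type I interferons are secreted by cells that sense viral RNA or stray DNA. They bind a receptor of 2 chains, IFNAR1 and IFNAR2, whose kinases JAK1 and TYK2 activate transcription factors of the STAT family, among them STAT2; a complex that holds STAT2 and IRF9 binds interferon-stimulated response elements (ISRE) in the promoters of target genes. In bone, interferon-beta is known as a brake on osteoclast formation, and most cell types keep a low basal level of several target genes.

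All mice carried the genotype KrasLSL-G12D/WT;p53Flox/Flox with an Ocn GFP reporter on a C57BL/6 background and were male. The Ocn (osteocalcin) reporter marks cells of the osteoblast lineage. The 4 tumor-bearing mice had received AdCre, an adenovirus that carries Cre recombinase, through the trachea 14 weeks before bones were taken, and the 3 mice labelled as controls, matched for age, sex and litter, were free of tumors; the labels do not say whether they received any virus. The age was 31 weeks, except for 1 mouse of each group aged 23 weeks (replicate 4 of the tumor-bearing and replicate 3 of the tumor-free mice). Cells of digested bone and of marrow depleted of blood lineages were pooled for each mouse, and 2000 GFP-positive cells without CD45, CD31 and Terr119 were sorted into 1 library of transcript 3′ ends.

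Libraries held 77127 to 169774 counts, and the group means did not differ beyond the spread (two-sided exact permutation test, p = 0.800, smallest possible p = 0.0286). The most abundant gene had between 282 and 303 counts in each library, although the totals differed. Whether high counts level off with depth was not tested, and the CPM of highly counted genes carry this limit. Each of the 15 osteoblast markers listed had a count in at least 1 library, and 10 had counts in all 7, but Bglap, the osteocalcin gene itself, had 8 counts in all and Sp7 had 4. Their summed level was 1567 ± 230 CPM (counts relative to the TMM-scaled library size; SD, n = 4) with a tumor and 2197 ± 569 CPM (SD, n = 3) without. Of 14 macrophage and monocyte markers 7 were at 0 in every library, among them Adgre1, Cd68 and C1qa, and the summed level of the list was 1119 to 1687 CPM with and 1352 to 1579 CPM without a tumor. Cx3cr1 held 989 of the 1188 counts of this list. Of 10 listed genes of plasmacytoid dendritic cells, which are strong interferon producers, 4 were at 0, including Tlr7 and Tlr9, and the others summed to 1119 to 1314 CPM with and 1257 to 1299 CPM without a tumor. Of the 1043 counts of this list Siglech had 400, Tcf4 232 and Runx2 173. Runx2 is also on the osteoblast list and enters both sums. Of 10 general leukocyte genes 2 were at 0, Coro1a and Cd52, and the list summed to 1230 to 1742 CPM with and 1060 to 1358 CPM without a tumor. Was held 725 of the 1106 counts of this list, and Ptprc, which encodes CD45, had 3 counts in all. Neutrophil genes, 8 of 13 at 0, summed to 2146 to 3278 CPM with and 2179 to 3115 CPM without a tumor, above the osteoblast list on average. Of the 2111 counts of this list Cxcr2 had 1304, Csf3r 655 and Mmp8 149. The genes at 0 were S100a8, Elane, Ngp, Ltf, Camp, Lcn2, Retnlg and Mmp9, so the sum rests on a few genes. Stromal niche genes, 1 of 9 at 0, summed to 983 ± 173 CPM (SD, n = 4) with and 789 ± 50.7 CPM (SD, n = 3) without. Other lists differed more: T and NK cell genes summed to 466 to 2033 CPM with and 330 to 586 CPM without a tumor, with 227 counts of Icos in tumor-bearing replicate 4, and erythroid genes to 81.9 to 123 CPM with and 127 to 204 CPM without. The part of these cells in the counts below was not tested. In such bulk libraries, fewer cells of a type and less RNA per cell cannot be told apart.

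Detection was concentrated in a few genes. Members took 193 to 595 counts per library, 0.241% to 0.350% of all counts, and 15 to 23 of the 39 had at least 1 count in a given library. Over all libraries 12 members had 20 counts or more, 16 had 1 to 17, and 11 had none. The kinase gene Eif2ak2 and the apoptosis-related gene Xaf1 together gave 59.3% of the 2388 counts of the set. Counts come from transcript ends and are not divided by length. How evenly different transcripts were captured was not tested, so this order of counts was not read as an order of levels. For comparison, 28.2% of members and 43.8% of all genes had 0 counts in all libraries, and 25.6% of members and 17.7% of all genes had a count in every library. By class, 5 of the 11 signalling members (45.5%) and 6 of the 28 effectors (21.4%) had 0 counts in all libraries.

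**Figure D1:**
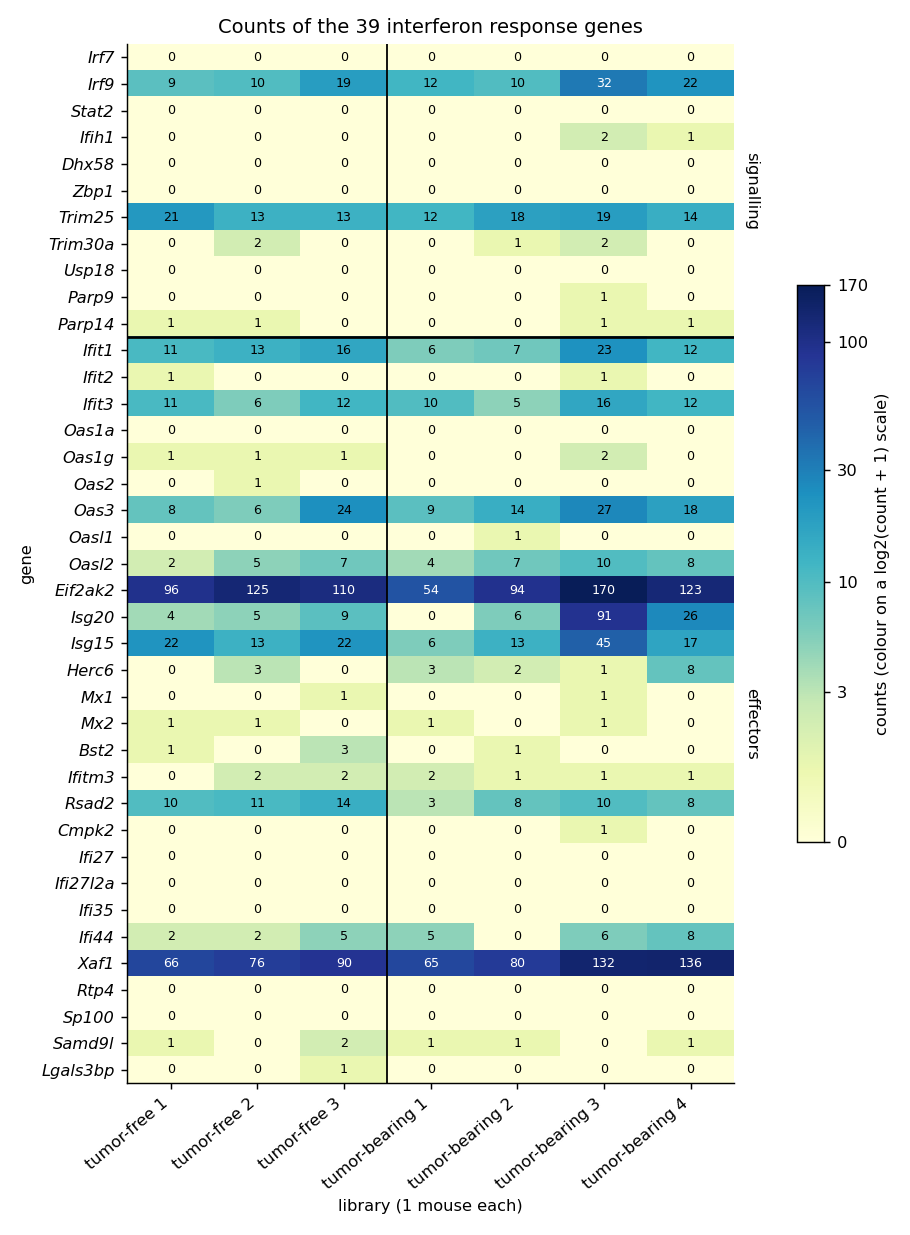
Counts of each of the 39 members (rows; 11 signalling genes above the line, 28 effectors below) in the 7 libraries (columns), with the count printed in each cell and the colour on a log2(count + 1) scale. Eif2ak2 (54 to 170 counts) and Xaf1 (65 to 136) stand out in every library, and 11 rows hold only 0.

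The promoters were searched for the element through which interferon acts on its target genes. An ISRE core, here GAAANNGAAA on either strand with overlapping matches counted, was searched in the 300 bases from 250 before to 50 after each RefSeq start (build GRCm38.p6, the assembly behind mm10). It was found for 13 of the 28 members with such a window (46.4%), for 57 of 152 other interferon pathway genes (37.5%) and for 699 of all 17763 genes (3.94%). A window with at least 2 matches was found for 7 of the 28 members (25%) and for 0.293% of all genes. The 6 stretches below lie upstream of genes that differed in detection, among them Isg15 with 138 counts and Stat2 with none. They are written 5′ to 3′ on the gene's own strand, with the matches in capitals.

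Isg15, chr4:156200855-156200916, minus strand, 3 overlapping matches: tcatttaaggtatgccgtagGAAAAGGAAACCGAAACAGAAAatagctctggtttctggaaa
Ifit1, chr19:34640765-34640833, plus strand, 2 matches: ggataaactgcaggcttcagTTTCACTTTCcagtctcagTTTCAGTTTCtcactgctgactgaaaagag
Oas3, chr5:120777705-120777754, minus strand, 1 match: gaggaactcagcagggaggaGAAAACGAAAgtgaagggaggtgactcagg
Rsad2, chr12:26456543-26456592, minus strand, 1 match: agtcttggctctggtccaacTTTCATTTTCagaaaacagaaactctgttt
Oas1g, chr5:120887614-120887651, minus strand, 2 overlapping matches: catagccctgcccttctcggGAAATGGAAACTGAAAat
Stat2, chr10:128270256-128270305, plus strand, 1 match: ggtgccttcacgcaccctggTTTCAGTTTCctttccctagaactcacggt

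Such a core was present both in members that were counted and in members that were not. It was found for 6 of the 10 members with a count in every library and for 7 of the 18 others with a window. Among the 12 members with at least 20 counts it was not in these windows for Irf9, Trim25, Xaf1, Isg20, Oasl2 and Ifi44. Signalling members (3 of 6) and effectors (10 of 22) held it at similar shares.

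Features of the transcripts were compared between members with and without regular counts. In the longest annotated transcript, 7 of the 10 members with a count in every library held at least 1 stretch of 25 bases that occurs in transcripts of 50 or more genes, against 0 of the other 29. These 7 were Eif2ak2, Xaf1, Irf9, Isg15, Oas3, Oasl2 and Rsad2; Ifit1, Ifit3 and Trim25 held none. Irf9 had 61 such stretches and Xaf1 51, and the other 5 genes had 5 or 6 each. Over all genes the shares were 35.3% of those with a count in every library and 9.91% of the rest. Runs of A inside the transcript, at least 11 in 12 bases and away from its end, occurred in 5 of the 10 and in 3 of the 29, against 37.2% and 14.1% of all genes. Whether reads from other transcripts or priming at such runs took part in these counts was not tested.

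**Figure D2:**
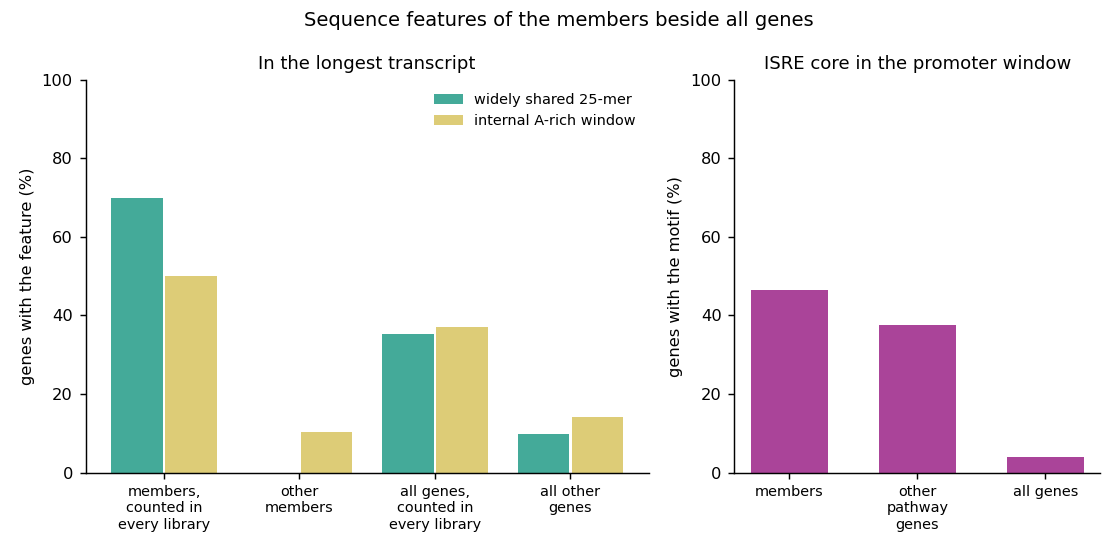
Percent of genes whose longest transcript holds a widely shared 25-base stretch or an internal A-rich window (left), and percent with an ISRE core in the promoter window (right). Shared stretches were found in 70.0% of members counted in every library and in 0% of the other members, and the ISRE core in 46.4% of members against 3.94% of all genes.

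Between the groups, no interferon response gene passed the test. After a filter on low counts, 2495 genes could be tested, 9 of them members, 2 signalling and 7 effector genes. The quasi-likelihood test of edgeR, fitted with the mice's age, called 0 of the 9 members and 0% of all genes tested at an adjusted p of 0.05; each member had an adjusted p = 0.990. At an unadjusted p of 0.05 it took 0 of the 9 members, against 2.69% of all genes, and DESeq2 and limma voom also took 0 of the 9 at either threshold. The median log2 fold change, tumor-bearing over tumor-free, was -0.09 over the 9 members and 0.04 over all genes. Of the members 5 lay below 0 and 4 above, where 45.9% of all genes lay below. The 2 groups did not overlap for Rsad2, lower in all 4 tumor-bearing mice, and for Xaf1, higher in all 4; over all genes 1.32% were separated downward and 2.20% upward.

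**Figure D3:**
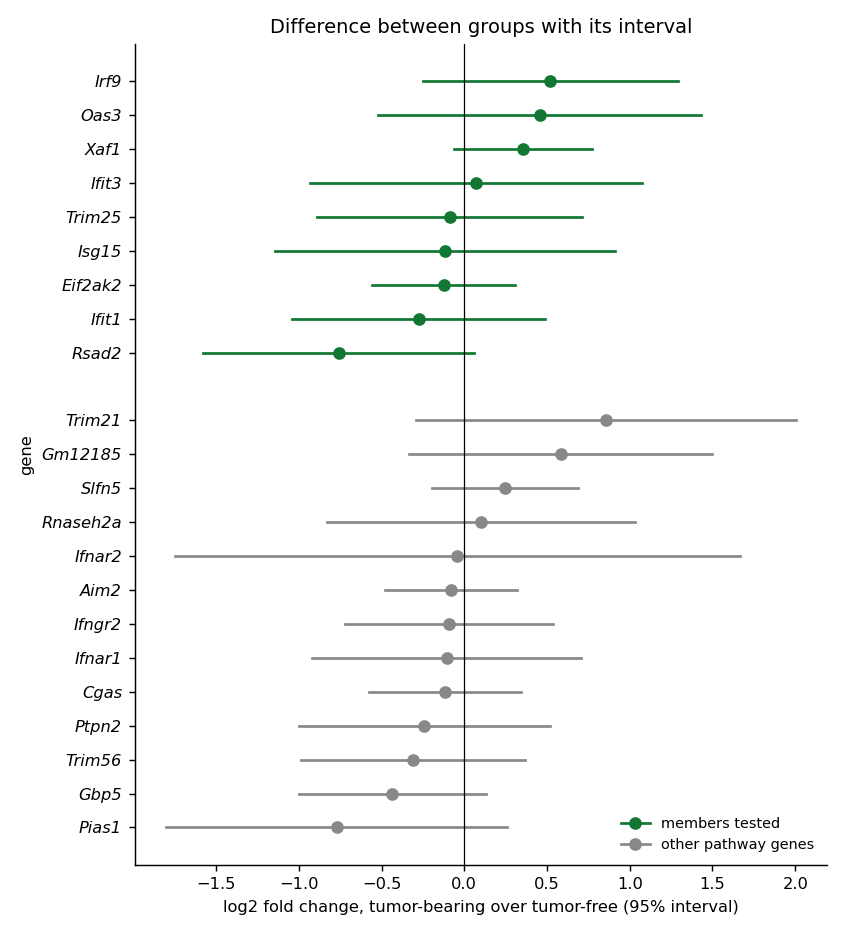
Log2 fold change, tumor-bearing over tumor-free, with its 95% interval for the 9 members tested (green) and 13 other interferon pathway genes (grey). Every interval drawn includes 0; the values of the members run from -0.76 for Rsad2 to 0.52 for Irf9.

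Of the transcription factors, only Irf9 was counted. Irf9 (gene ID 16391, chromosome 14, 55603985 to 55610030, mm10) encodes the DNA-binding partner of STAT2. Its level was 87.5, 84.9 and 153 CPM in tumor-free replicates 1 to 3 and 165, 105, 179.8 and 150.1 CPM in tumor-bearing replicates 1 to 4. The 2 tumor-free mice of 31 weeks were below all others, and the groups overlapped through the 23-week tumor-free mouse. The means were 149.9 ± 32.2 CPM (SD, n = 4) and 109 ± 38.6 CPM (SD, n = 3), a log2 fold change of 0.52 (SE 0.33, 95% interval -0.25 to 1.29). In the 31-week mice alone the value was 0.80, which moved it by over 1.5 times but left it short of the threshold (edgeR, adjusted p = 0.996); when tumor-bearing replicate 3 was dropped it was 0.30. Stat2, whose protein joins IRF9, and Irf7, the factor that amplifies interferon production, had 0 counts in all 7 libraries. A count of 0 over the 830673 counts of all libraries allows up to 3.61 CPM, and in a single library up to 17.7 to 38.9 CPM.

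The sensors were at or near 0. Ifih1, which encodes the RNA sensor MDA5, had 2 counts in tumor-bearing replicate 3 and 1 in replicate 4. Dhx58, encoding the related helicase LGP2, and Zbp1, a sensor of Z-form nucleic acid, had none. Differences between groups in these genes were not detectable at this depth.

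Among the regulators Trim25 was the only one tested. Trim25 (gene ID 217069, chromosome 11, 88999403 to 89020294) encodes a ubiquitin ligase that promotes signalling by the RNA sensor RIG-I. It had 204, 110.4 and 105 CPM in tumor-free replicates 1 to 3 and 165, 189, 107 and 95.5 CPM in tumor-bearing replicates 1 to 4. High and low mice occurred in both groups, with means of 139 ± 45.1 CPM and 139.8 ± 55.9 CPM and a log2 fold change of -0.09 (SE 0.35). Its sign turned when tumor-free replicate 1 (0.21) or tumor-bearing replicate 3 (0.02) was dropped. The other 4 regulators had 0 to 5 counts in all. Usp18, which shuts off receptor signalling and removes ISG15 from proteins, had none; Trim30a had 5, Parp14 had 4 and Parp9 had 1.

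Among effectors that act on RNA, Eif2ak2 had the most counts of all members. It encodes PKR, a kinase that halts translation when it binds double-stranded RNA (gene ID 19106, chromosome 17, 78850504 to 78882572). It had 934, 1061 and 886 CPM in tumor-free replicates 1 to 3 and 741, 988, 955 and 839 CPM in tumor-bearing replicates 1 to 4. The ranges overlapped, and the log2 fold change of -0.12 (SE 0.19) had the interval -0.56 to 0.31, which is 0.680 to 1.24 times the tumor-free level. Oas3, which makes the second messenger that activates RNase L, had 77.8, 50.9 and 193 CPM in tumor-free and 123, 147, 152 and 123 CPM in tumor-bearing replicates. Tumor-free replicate 3, one of the younger mice, was the highest of all 7, and the other tumor-free mice were the lowest. The log2 fold change was 0.46 (SE 0.42), 1.13 in the 31-week mice alone (edgeR, unadjusted p = 0.0287, adjusted p = 0.996). It was 1.16 when tumor-free replicate 3 was dropped, 1.10 when tumor-bearing replicate 4 was dropped and 0.10 when tumor-free replicate 2 was dropped, and the lowest adjusted p over all alternatives was 0.793 (edgeR).

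The Ifit genes encode proteins that bind foreign RNA ends. Ifit1 had 107, 110.4 and 129 CPM in tumor-free replicates 1 to 3 and 82.3, 73.6, 129 and 81.9 CPM in tumor-bearing replicates 1 to 4. Of the tumor-bearing mice 3 were below every tumor-free mouse and replicate 3 was level with the highest; the log2 fold change was -0.28 (SE 0.33), and with a library left out it ran from -0.11 (tumor-free replicate 3) to -0.60 (tumor-bearing replicate 3). Ifit3 had 107, 50.9 and 96.7 CPM in tumor-free and 137, 52.6, 89.9 and 81.9 CPM in tumor-bearing replicates, a log2 fold change of 0.07 (SE 0.43) whose sign turned with 3 of the libraries left out. Its transcript shares 66.1% of its 25-base stretches with Ifit3b (51 counts), so reads of the 2 genes may have been split between them. Ifit2 had 2 counts in all.

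The other RNA-acting effectors did not enter the test. Oasl2, a relative of the OAS enzymes with a ubiquitin-like tail, had 2, 5 and 7 counts in tumor-free and 4, 7, 10 and 8 in tumor-bearing replicates. Isg20, an exonuclease that degrades RNA, had 4, 5 and 9 counts in tumor-free replicates and 0, 6, 91 and 26 in tumor-bearing replicates. Tumor-bearing replicate 3 thus held 64.5% of its 141 counts, while replicate 1 had none, and the gene did not pass the filter on low counts. With no filter its log2 fold change was 2.05 (SE 1.41), short of the threshold (edgeR). Oas1g had 5 counts, Oas2 and Oasl1 1 each and Oas1a none; Oas1a and Oas1g share 71.7% of the 25-base stretches of Oas1a, and their reads could be split.

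**Figure D4:**
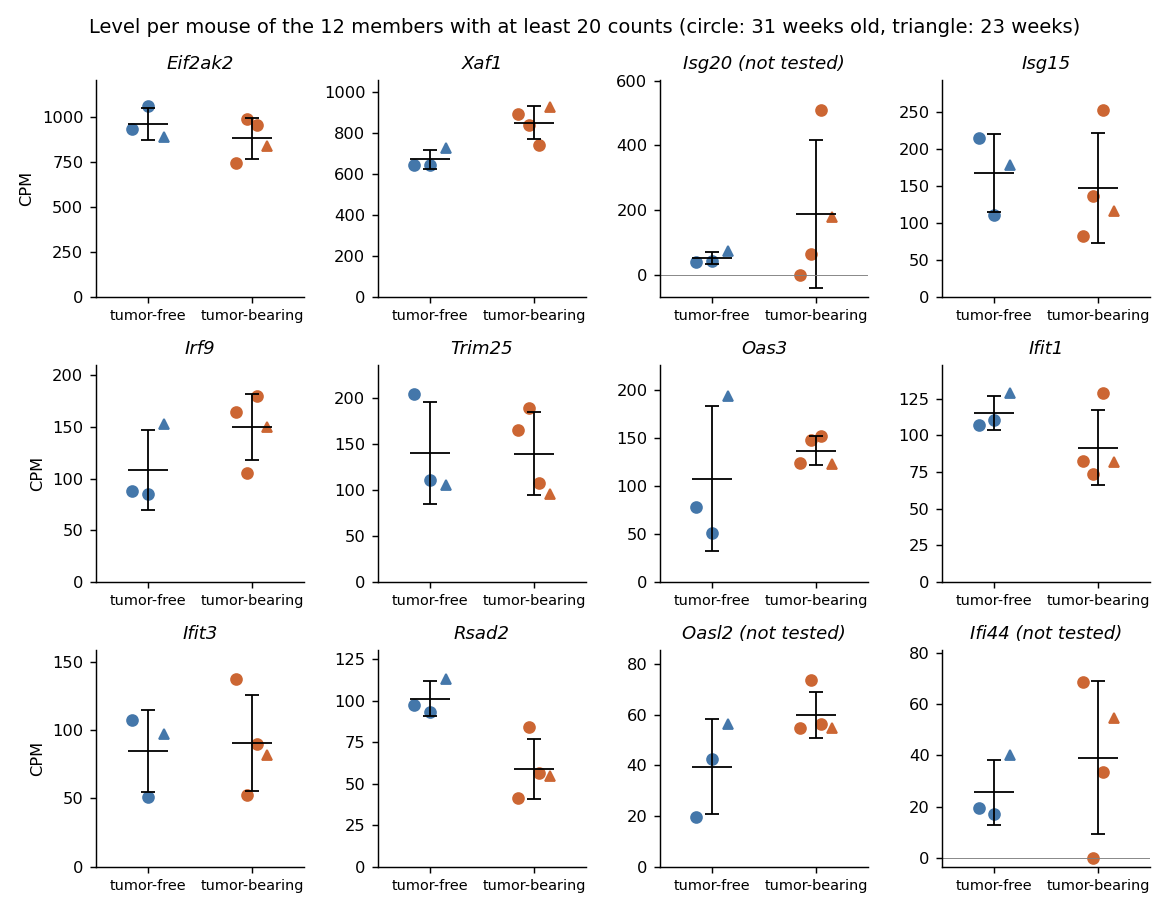
Level in CPM of the 12 members with at least 20 counts, 1 point per mouse (blue tumor-free, orange tumor-bearing, triangles 23 weeks old), with the mean and SD of each group. The groups separate for Xaf1 and Rsad2, and a single tumor-bearing mouse with 511 CPM sets the mean of Isg20.

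Isg15 encodes the ubiquitin-like protein that is attached to newly made proteins during the response (gene ID 100038882, chromosome 4, 156199424 to 156200818). It had 214, 110.4 and 177 CPM in tumor-free replicates 1 to 3 and 82.3, 137, 253 and 116 CPM in tumor-bearing replicates 1 to 4. The tumor-bearing mice held both the lowest and the highest value, and the log2 fold change was -0.12 (SE 0.44, interval -1.14 to 0.91). Its sign turned in 5 of 15 alternatives (0.10 at most), and it was -0.61 when tumor-bearing replicate 3 was dropped and -0.46 when tumor-free replicate 2 was dropped. Within groups the variance of its counts was 3.54 times that of counting alone (chi-square per degree of freedom), the most of the 9 members tested. The median was 1.17 times for the 9 members and 2.12 times for all genes tested. Herc6, the main ligase of ISG15 in mice, had 0, 3 and 0 counts without and 3, 2, 1 and 8 with a tumor.

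Rsad2 encodes viperin, an enzyme that makes a chain-terminating nucleotide (gene ID 58185, chromosome 12, 26442743 to 26456452). It had 97.3, 93.4 and 113 CPM in tumor-free replicates 1 to 3 and 41.1, 84.1, 56.2 and 54.6 CPM in tumor-bearing replicates 1 to 4. All 4 tumor-bearing mice lay below the lowest tumor-free mouse, at 59.0 ± 18.0 CPM (SD, n = 4) against 101 ± 10.3 CPM (SD, n = 3). The log2 fold change was -0.76 (SE 0.35, interval -1.58 to 0.06), with an adjusted p = 0.990 in edgeR's quasi-likelihood test (unadjusted p = 0.0652). These levels rest on 3 to 14 counts per library. With no age term the log2 fold change was -0.77 (edgeR, unadjusted p = 0.0423), and dropping tumor-bearing replicate 2 gave -0.97 (edgeR, unadjusted p = 0.0407). Both were short of the adjusted threshold. In 5 of 16 alternatives the gene did not pass the filter. Cmpk2, the neighbouring gene for a nucleotide kinase, had 1 count in all.

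Xaf1, a promoter of apoptosis that interferon induces, lay on the other side (gene ID 327959, chromosome 11, 72301461 to 72313733). It had 642, 645 and 725 CPM in tumor-free replicates 1 to 3 and 892, 841, 742 and 928 CPM in tumor-bearing replicates 1 to 4. The lowest tumor-bearing mouse, replicate 3, was just above the highest tumor-free mouse, the 23-week one. The means were 850.4 ± 80.8 CPM (SD, n = 4) and 671 ± 47.2 CPM (SD, n = 3), a log2 fold change of 0.35 (SE 0.18, interval -0.06 to 0.77; edgeR, adjusted p = 0.990, unadjusted p = 0.0853). With a filter of at least 30 counts in at least 3 libraries the value was 0.33 (edgeR, unadjusted p = 0.0455, adjusted p = 0.956). This was its lowest unadjusted p over 16 alternatives. The Xaf1 transcript is one of those with many widely shared stretches.

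The remaining effectors gave few or no counts. Ifi44 had 2, 2 and 5 counts without and 5, 0, 6 and 8 with a tumor. Ifitm3, a membrane protein that blocks virus entry, had 9 counts in all, and Bst2, which tethers budding virus, had 5. The GTPase genes Mx1 and Mx2 had 2 and 4, Samd9l had 6 and Lgals3bp 1. Ifi27, Ifi27l2a, Ifi35, Rtp4 and Sp100, the last a protein of nuclear bodies, had 0 in all libraries.

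Summed over the set, signalling and effector genes overlapped between the 2 groups. The 11 signalling members summed to 302, 221 and 258 CPM in tumor-free replicates 1 to 3 and 329, 305, 320.2 and 259 CPM in tumor-bearing replicates 1 to 4 (log2 ratio of means 0.22, no test). The ranges overlapped, and Irf9 and Trim25 made up most of these sums; without Irf9 the log2 ratio was 0.02. It was 0.34 and 0.11 when tumor-free replicate 1 or 2 was dropped, and 0.15 and 0.14 when tumor-bearing replicate 1 or 3 was dropped. The 28 effectors summed to 2305, 2292 and 2571 CPM without and 2318, 2523, 3022 and 2579 CPM with a tumor (log2 ratio 0.13). Tumor-bearing replicate 3 was the highest, and without it the log2 ratio was 0.00063. Without Isg20 the 38 other members summed to 2726 ± 87.8 CPM (SD, n = 4) with and 2598 ± 145 CPM (SD, n = 3) without a tumor. The ratio of effector to signalling sums was 7.65 to 10.4 without and 7.04 to 9.95 with a tumor. It sets 28 genes against 11, and Eif2ak2 and Xaf1, both effectors, gave 59.3% of the counts of the set. The ratio was therefore not read as a difference in level between the classes. The 32 members with no widely shared stretch summed to 452 to 949 CPM in tumor-bearing and 424 to 535 CPM in tumor-free mice (log2 ratio 0.35). Isg20 made this ratio: without it the 31 others summed to 443 ± 73.8 CPM (SD, n = 4) and 443 ± 57.5 CPM (SD, n = 3), a log2 ratio of -0.000902.

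**Figure D5:**
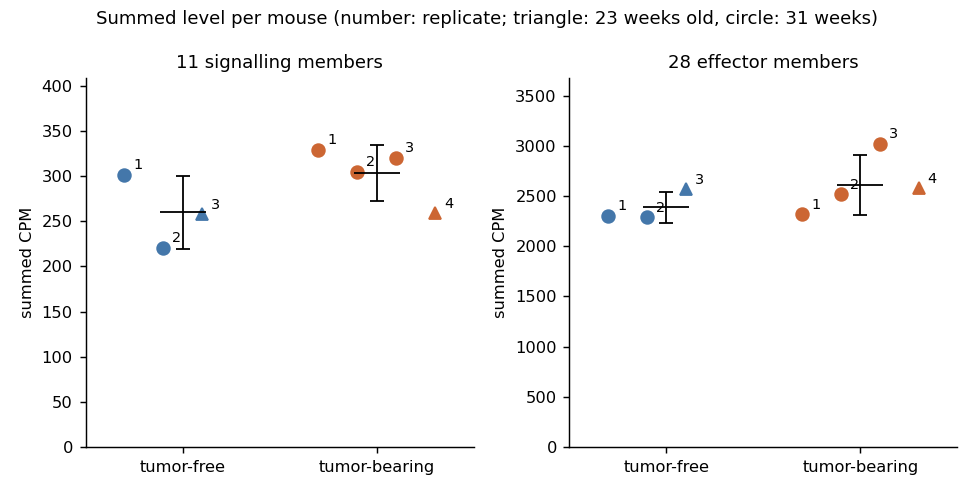
Summed level in CPM of the 11 signalling members (left) and the 28 effectors (right), 1 point per mouse labelled with its replicate number, with the mean and SD of each group. The ranges overlap in both panels, and tumor-bearing replicate 3 is the highest of the effector panel at 3022 CPM.

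Other genes of the interferon pathway were taken from a separate list of 181 genes, of which 26 could be tested. None passed (edgeR, 0 higher and 0 lower; 0 at an unadjusted p of 0.05, and 0 with DESeq2 or limma voom), with 11 above and 15 below 0 and a median log2 fold change of -0.05. Of 21 interferon genes 18 had 0 counts everywhere. Ifnb1, encoding interferon-beta, had 2 counts, both in tumor-bearing replicate 2, Ifne had 18, all in tumor-bearing replicate 3, and Ifnk had 1, in tumor-free replicate 1.

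Both receptor chains were counted. Ifnar1 had 1430.0, 1350 and 1410.3 CPM in tumor-free replicates 1 to 3 and 1001, 2375, 904 and 1044 CPM in tumor-bearing replicates 1 to 4. Of the tumor-bearing mice 3 were below all tumor-free mice and replicate 2 was far above them, which left the means close (1331 ± 699 against 1397 ± 41.8 CPM, log2 fold change -0.11, SE 0.35). Ifnar2 had 29.2, 255 and 96.7 CPM in tumor-free and 110, 42.0, 236 and 88.7 CPM in tumor-bearing replicates, spread widely within each group (-0.04, SE 0.72). Ifngr2, a chain of the interferon-gamma receptor, had a log2 fold change of -0.09 (SE 0.27).

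The kinases and factors below the receptor were sparse. Jak1 had 14 counts in all, Irf3, which switches on the interferon-beta gene, had 18, and Tyk2 had 1. Irf5 had 35 counts, of which tumor-free replicate 3 held 29. All 12 genes of this list were below the filter.

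Of 20 sensors and adaptors outside the set 3 could be tested. Aim2, a sensor of cytosolic DNA, had 1011 ± 54.5 CPM in tumor-bearing and 1068 ± 136 CPM in tumor-free mice (-0.08, SE 0.17 on the log2 scale). Cgas, the enzyme that turns DNA into a signal for STING, had 573 ± 91.1 against 612 ± 144 CPM (-0.12, SE 0.20), and Trim56, a ubiquitin ligase of that pathway, a log2 fold change of -0.31 (SE 0.29). Sting1 itself had 2 counts. Of the negative regulators Pias1, a SUMO ligase gene, had -0.77 (SE 0.44), the phosphatase gene Ptpn2 -0.24 (SE 0.33) and Rnaseh2a, a subunit of RNase H2, 0.10 (SE 0.40). Pias1 was high in a single tumor-free mouse, replicate 2, with 27 of its 82 counts.

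Of 104 further target genes 17 were tested, 10 above and 7 below 0. Gbp5, a guanylate-binding GTPase, had 165, 169.8 and 169 CPM in tumor-free and 123, 105, 124 and 136 CPM in tumor-bearing replicates (-0.43, SE 0.24), and the groups did not overlap. Trim21, a cytosolic antibody receptor, had the value 0.86 (SE 0.49), Gm12185 0.58 (SE 0.39) and Slfn5, a schlafen gene, 0.25 (SE 0.19). None of these passed edgeR's test (adjusted p = 0.990 each). These genes were named because their p was the smallest in this list. Over all genes tested 1.32% were separated downward, so the separation of Gbp5 was not read as a difference.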

How the data were processed

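The labels' protocols name Trizol for the RNA and a custom CEL-Seq library of 3′ ends carrying unique molecular identifiers. TopHat2 2.0.10, SAMtools and the build mm10 come from the submitters' processing notes. The sources used here do not give the counting program, its strand setting, or how identifiers were used, so a count may be a read or a molecule. The authors deposited raw counts, whole numbers for each Entrez ID, in 1 file per mouse. p-values measure the spread between these mice. Symbols and coordinates came from RefSeq GRCm38.p6 for 23666 of 23725 IDs.

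Genes were filtered with filterByExpr (minimum count 10, minimum total 15), scaled by TMM and tested in edgeR 4.0.16 (R 4.3.3) with glmQLFit and glmQLFTest, age as a factor, Benjamini-Hochberg at 0.05. CPM use TMM-scaled totals. SE is the fold change over the root of F, and intervals are 95%. Limits of a count of 0 use 3 counts and cover counting error only. Members and lists were chosen with earlier results of these data known. Members with at least 20 counts are given per mouse; of each pathway list up to 4 genes tested with the smallest p are named, with Ifnar1, Ifnar2, Jak1, Tyk2, Ifnb1 and Irf3; 1 further gene of that rule is not reported here. Ifne, Ifnk, Irf5, Sting1 and the transcript features were chosen, and the members under 20 counts named, after values were seen. Library pairs differed by a chi-square per degree of freedom of 3.57 to 6.85, so none was a repeat. Alternatives were no age term, 31-week mice, a replicate block, DESeq2 1.42.0, limma 3.58.1 voom, other scalings and filters, and each library left out. The procedure was run on simulated data whose planted changes were larger than any fold change of the members tested. It does not tell how often changes of the members' size would be found. Transcript features use the longest GENCODE vM21 transcript per symbol, leaving out 25-base stretches with at least 23 bases of 2 kinds, and A runs in the last 100 bases. No member had an opposite-strand exon over its last 500 bases.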

Additional observations from a re-analysis of the deposited data

Results flagged for a closer look

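Among 15 values examined in the 4 tumor-bearing mice (12 members and 3 sums), 2 held a mouse far from the other 3; chance flags about 1 in 20 groups. Ifit1 had 129 CPM in tumor-bearing replicate 3, the deepest library, against 73.6 to 82.3 CPM in the other tumor-bearing mice. Oasl2 had 73.6 CPM in tumor-bearing replicate 2, where the others had 54.6 to 56.2 CPM; that value rests on 7 counts.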

How the results depend on the processing

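The count of members called was 0 under all 16 alternatives, with 2 to 28 members tested, as were those of the pathway list and of all genes. The median log2 fold change of the members ran from -0.17 to 0.27. Of 133 recomputed values of single members, 122 kept their sign and none passed the adjusted threshold. The 11 that changed sign belonged to Trim25, Ifit3 and Isg15: with a library left out, Trim25 ran from -0.36 to 0.21, Ifit3 from -0.25 to 0.32 and Isg15 from -0.61 to 0.10. Isg15 was 0.0667 in the 31-week mice. With the replicate block, which left out tumor-bearing replicate 4, Trim25 was 0.11; the block called 0 genes and the summed level of members had a log2 ratio of 0.14. Same-numbered mice did not deviate together (correlations -0.20, -0.12 and -0.14), and the labels state no pairing. Replicate 3 was 31 weeks old with a tumor and 23 weeks old without, so equal numbers did not follow the match for age. This check and the block therefore cannot speak to pairing by age or litter, which was not tested. Log2 ratios of sums moved beyond the spread between mice when the gene with most counts was left out: 0.27 for all members and 0.28 for effectors without Eif2ak2, 0.0184 for signalling genes without Irf9. With only members that hold no widely shared stretch, an alternative chosen after seeing the data, they were 0.35 for all, 0.0184 for signalling and 0.48 for effector genes; without Isg20 as well they were -0.000902 for all and -0.011 for effectors (also chosen then), and for the full set without Isg20 alone 0.07 and 0.05. Library totals were lower by 8840 counts on average with a tumor (-8840) once tumor-bearing replicate 3 was left out, and 22043 higher at most with another left out. Where a 23-week mouse is left out, the age term fits the other exactly. The median SE of 0.35 over the members tested, an interval reaching 0.80 to either side, limits what can be seen.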
